A study of Homo sapiens with 16 samples.

Results

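NF-kB is a family of dimeric transcription factors, and the genes described here are its 5 subunits and 5 of the genes that hold it in check or carry its feedback. The subunits are NFKB1, NFKB2, REL, RELA and RELB. The others are the inhibitor genes NFKBIA and NFKBIE, the ubiquitin-editing enzyme gene TNFAIP3, the ubiquitin ligase gene BIRC3 and the adaptor gene TRAF1. They were chosen by symbol, with earlier results of these data known. All 10 were found among the 57820 entries of the deposited table, 1 entry each. All 10 passed the filter on low values (a mean of 20 normalised counts or more) in every comparison.

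In resting cells IkB proteins such as the product of NFKBIA hold NF-kB dimers in the cytoplasm, and the IkB kinase (IKK) marks them for destruction when a receptor is engaged. A slower branch runs through the kinase gene MAP3K14, processing of the NFKB2 product and RELB. Active NF-kB switches on its own inhibitors and several of its subunit genes. In T-cell acute lymphoblastic leukaemia (T-ALL), NF-kB is known as a survival factor that acts downstream of NOTCH1.

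RNA was sequenced from 3 human T-ALL lines, CUTLL1, KOPTK1 and HPB-ALL, after the long non-coding RNA lnrCXCR4 was targeted. In each line lentivirus delivered CRISPR components, with 2 targeted libraries (guide 1 and guide 2) against a non-targeting guide, of which CUTLL1 and KOPTK1 had 1 library each and HPB-ALL 2. CUTLL1 and KOPTK1 were also given an antisense oligonucleotide (ASO) in the medium at 1 uM, with 2 targeted libraries (ASO 1 and ASO 2) and 1 scrambled ASO control per line. This made 5 experiments and 16 libraries, 6 control and 10 targeted. No label states the time after treatment, or whether infected cells were pooled or cloned. The descriptions call numbers 1 and 2 replicates while the titles give them as guides or ASOs, and nothing says that they came from separate cultures, so a p-value here reflects library-to-library spread alone, which may be technical.

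Values are normalised read counts from libraries of 34547469 to 72178929 recovered reads. The level of lnrCXCR4 itself was not analysed here, as 0 entries bear that name. Libraries of the same line and arm were close whether treated with guides or ASOs. Their mean chi-square per gene, where 1 is counting noise, was 1.73 to 14.5 between guide and ASO libraries (10 pairs) and 2.34 to 6.75 between replicates (6 pairs), against 168 to 305 between control and targeted libraries (20 pairs). All 10 T-lineage markers were present, and their summed level was 270812 to 299510 in controls and 169623 to 207384 in targeted libraries. The mitochondrial share of counts was 1.84% to 2.48% in controls and 2.46% to 3.25% in targeted libraries. The summed level of 6 myeloid markers was 51.4 or less and of 4 erythroid markers 14.3 or less, and CD79A was the 1 B-lineage marker of 5 above 20. The library of KOPTK1 guide 1 stood apart with COL1A1 at 426 and COL1A2 at 276, genes of fibroblast collagen. The part of these differences in the results below was not tested.

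The promoter sequences below are shown because 6 of the 10 genes carry a match to the kappaB consensus, the DNA motif of NF-kB itself, close to a transcription start. They come from RefSeq (GRCh38.p14), which holds 300-base windows (250 bases before to 50 after a start) for 8 of the genes, all but RELB and NFKBIE. Capitals mark matches on either strand, with overlapping matches joined, and the sequence is written 5′ to 3′ on the strand of the gene. On the plus strand are NFKB1 (chr4:102501300-102501329), REL (chr2:60881517-60881546), NFKB2 (chr10:102394461-102394490), TNFAIP3 (chr6:137867188-137867217) and BIRC3 (chr11:102317272-102317371). NFKBIA lies on the minus strand (chr14:35404776-35404875).
NFKB1: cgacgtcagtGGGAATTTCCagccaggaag
REL: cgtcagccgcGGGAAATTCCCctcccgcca
NFKB2: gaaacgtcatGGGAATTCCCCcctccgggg
TNFAIP3: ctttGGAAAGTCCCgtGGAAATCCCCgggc
BIRC3: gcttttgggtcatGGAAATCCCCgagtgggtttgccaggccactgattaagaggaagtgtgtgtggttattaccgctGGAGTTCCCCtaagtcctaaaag
NFKBIA: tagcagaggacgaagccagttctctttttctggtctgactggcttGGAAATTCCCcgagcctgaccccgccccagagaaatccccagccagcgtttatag

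The consensus had a match in 7 of the 14 windows of these genes and in 5.91% of all 35116 windows, or in 7.09% of all 27305 symbols with a window. RELA and TRAF1 had none in theirs. A match is a description of the sequence, not a measured binding site.

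With guides, NFKB1 fell to about the same share of its control in all 3 lines, NFKBIE, TNFAIP3, BIRC3 and TRAF1 fell, and REL rose. RELA rose slightly, while NFKB2, RELB and NFKBIA took different courses in different lines. Of the 10 genes 2 were called higher and 6 lower in the guide comparison (limma, adjusted p under 0.05), where 67.7% of the 14069 genes tested were called, 32.7% higher and 35.0% lower. Their median log2 fold change was -0.45, against -0.03 over all genes tested. With ASOs 2 were called higher and 5 lower, where 65.0% of 13712 genes were called, 31.8% higher and 33.2% lower, with a median of -0.23 against -0.01. The shares called in either direction, 8 of 10 with guides and 7 of 10 with ASOs, are near the background. The split leaned more to lower calls than it did over all genes. In bulk RNA, fewer cells of a type and less RNA per cell cannot be told apart. Quantile scaling, which moved the median of all genes in the guide comparison from -0.03 to 0.07, left 2 higher and 5 lower with guides (RELB lost) and gave 5 higher and 5 lower with ASOs (NFKB2, RELB and NFKBIA gained).

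**Figure D1:**
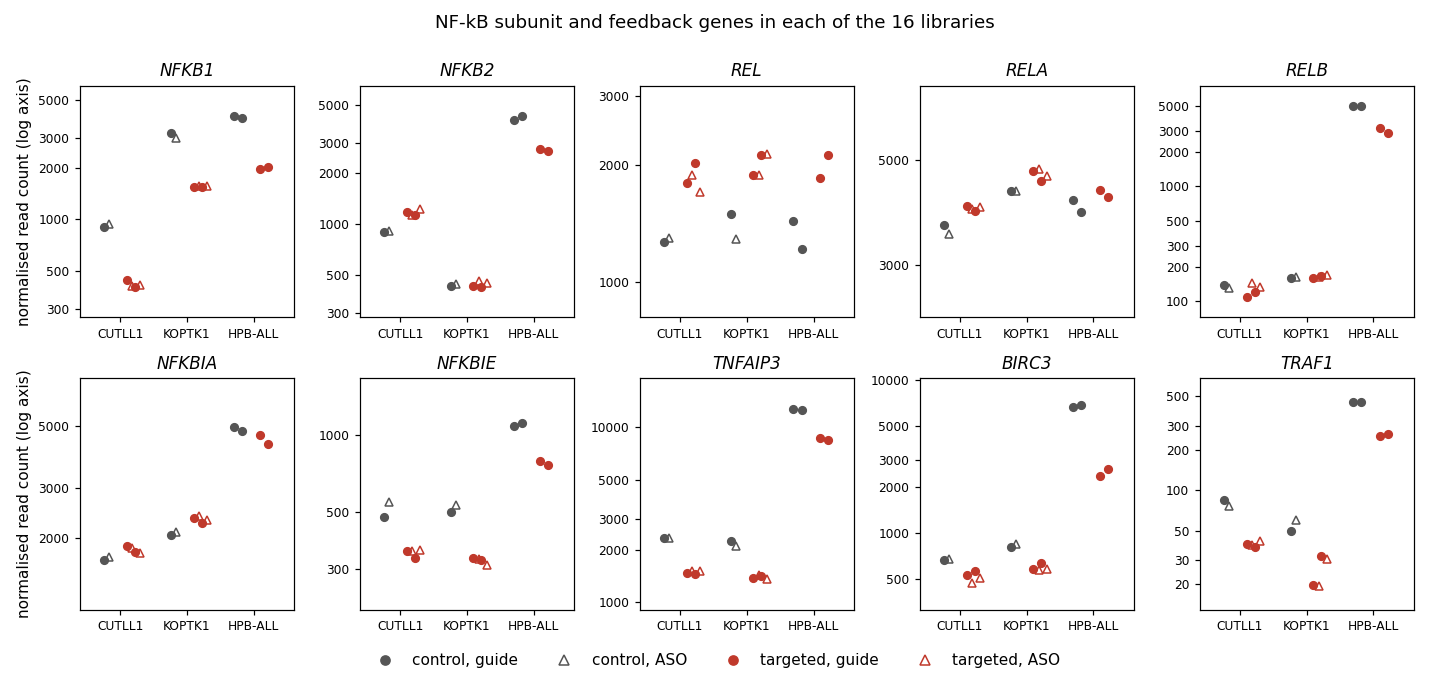
Normalised read count (log axis, its own scale in each panel) of each gene in the 16 libraries, by line, with controls grey and targeted libraries red, guides as filled circles and ASOs as open triangles. NFKB1 and TNFAIP3 lay below the controls of their line in every targeted library, and REL above them. In the controls all genes but REL and RELA were highest in HPB-ALL.

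NFKB1 encodes p105, the precursor of the p50 subunit. In CUTLL1 it read 898 in the guide control and 445 and 402 with guides 1 and 2, and 942 in the ASO control and 409 and 412 with ASOs. In KOPTK1 the guide control stood at 3208 and the guides at 1554 and 1539.8, and the ASO control at 2997 and the ASOs at 1566 and 1568. In HPB-ALL the controls were 4029 and 3925 and the guides 1956 and 2015. Every targeted library was below every control of its line, at a mean of 45.3% of control in CUTLL1, 50.2% in KOPTK1 and 49.9% in HPB-ALL. The log2 fold change was -1.04 with guides (SE 0.044, adjusted p 8.68e-08) and -1.07 with ASOs (SE 0.071, adjusted p 3.89e-05). By experiment it ran from -1.20 in CUTLL1 with ASOs to -0.94 in KOPTK1 with ASOs. A fall past 2-fold with an adjusted p under 0.05 was found for 11.4% of genes in the guide comparison, and NFKB1 was the 1 member in that class. The F test of a difference in guide effect between the lines did not pass (F 0.57, adjusted p 0.656).

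NFKB2 encodes p100, whose processing to p52 is the step that defines the slower branch. It read 899.6 and 906 in the CUTLL1 controls, 1173 and 1130.2 with guides, and 1126 and 1223 with ASOs. In KOPTK1 its controls were 436 and 443, its guides 435 and 426 and its ASOs 461 and 450.4. In HPB-ALL it went from 4079 and 4322 to 2739 and 2694. Targeted libraries were thus all above the controls in CUTLL1, overlapped them in KOPTK1 and were all below them in HPB-ALL. The guide effect was 0.36 in CUTLL1 (SE 0.067, adjusted p 0.000646), -0.02 in KOPTK1 (SE 0.067, adjusted p 0.827) and -0.63 in HPB-ALL (SE 0.054, adjusted p 8.13e-07). An F test found these 3 effects to differ (F 69.1, adjusted p 1.90e-05). With ASOs the effect was 0.37 in CUTLL1 (adjusted p 0.000475) and 0.04 in KOPTK1 (adjusted p 0.637). Pooled over lines, NFKB2 was at -0.17 with guides (adjusted p 0.305) and 0.21 with ASOs (adjusted p 0.0903). Leaving out the lone control of a line takes that line out of the pooled estimate. The guide value without the CUTLL1 control, from KOPTK1 and HPB-ALL alone, passed (-0.38, adjusted p 0.0148). The ASO value without the KOPTK1 control was that of CUTLL1 alone (0.37). Quantile scaling moved the KOPTK1 values to 0.31 with guides (adjusted p 0.00212) and 0.34 with ASOs (adjusted p 0.00123).

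REL encodes c-Rel, the subunit most restricted to lymphoid cells. It stood at 1266 and 1301 in the CUTLL1 controls, 1792 and 2025 with guides and 1881 and 1700.0 with ASOs. In KOPTK1 it was 1499 and 1292 in controls, 1886 and 2116 with guides and 1878 and 2131 with ASOs. In HPB-ALL it was 1431 and 1218 in controls and 1847 and 2117 with guides. All 10 targeted libraries were above all 6 controls, across lines as well as within them. Its log2 fold change was 0.54 in both the guide comparison (SE 0.072, adjusted p 0.000112) and the ASO comparison (SE 0.077, adjusted p 0.000939). In single experiments it ran from 0.41 in KOPTK1 with guides (adjusted p 0.0130) to 0.63 in KOPTK1 with ASOs (adjusted p 0.000984). The former call was lost without KOPTK1 guide 2 (0.33, adjusted p 0.0666). The difference between lines did not pass (F 0.66, adjusted p 0.619). REL overlaps 2 small non-coding genes on its own strand in the GENCODE v29 annotation, whose reads may be shared.

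RELA encodes p65, the activating partner of p50. It read 3656 and 3496 in the CUTLL1 controls and 3911 to 4009 in the 4 targeted libraries. In KOPTK1 it read 4313 and 4311, against 4512 to 4793. The HPB-ALL values were 4112 and 3890.3 in controls and 4333 and 4192 with guides. Targeted libraries lay above the controls of their line in all 3 lines, at 111%, 108% and 107% of the control mean in CUTLL1, KOPTK1 and HPB-ALL. The log2 rise of RELA was 0.10 with guides (SE 0.033, adjusted p 0.0226) and 0.15 with ASOs (SE 0.035, adjusted p 0.00787). Passing with guides depended on single libraries and on the filter. The test was missed without CUTLL1 guide 1 (adjusted p 0.0511), HPB-ALL control 2 (0.0639) or HPB-ALL guide 1 (0.0542), with values of 0.09 to 0.10. It was also missed without the CUTLL1 control (0.0526), which takes CUTLL1 out of the estimate. Either guide number alone and no filter (0.0770) lost the call as well. The ASO call was lost with ASO number 1 alone (0.16, adjusted p 0.104) and number 2 alone (0.15, adjusted p 0.136). The HPB-ALL value on its own was at the threshold (0.09, adjusted p 0.0499). With no filter (adjusted p 0.117), robust moderation (0.0537) or DESeq2 (0.126) it missed the threshold. It missed it without either CUTLL1 guide, either HPB-ALL guide, HPB-ALL control 2, or any of the 4 targeted ASO libraries, with adjusted p of up to 0.328.

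RELB, the partner of p52, had far higher counts in HPB-ALL than in the other lines. It read 139 and 130.1 in the CUTLL1 controls, 109 and 121 with guides and 144 and 134 with ASOs. In KOPTK1 it read 159 and 163 in controls, 159 and 167 with guides and 164 and 170.2 with ASOs. In HPB-ALL it read 5015 and 5012 in controls and 3216 and 2927 with guides. Arms overlapped in CUTLL1 and KOPTK1, and both HPB-ALL guide libraries lay below both controls. In HPB-ALL RELB fell by 0.71 (SE 0.090, adjusted p 2.26e-05), while the guide values were -0.27 in CUTLL1 (adjusted p 0.0531) and 0.04 in KOPTK1 (adjusted p 0.806). The CUTLL1 value lay at the threshold: it passed at a mean of 100 or more (adjusted p 0.0431), with robust moderation (0.0432), without CUTLL1 guide 2 (-0.35, 0.0325) and without the KOPTK1 guide control or either ASO control (0.0486 to 0.0496). With quantile scaling it was 0.04, and the KOPTK1 value 0.40. The guide effect differed between lines (F 14.1, adjusted p 0.00432). The pooled guide call (-0.37, SE 0.12, adjusted p 0.0193) was lost without any 1 of the 4 HPB-ALL libraries (-0.34 to -0.29, adjusted p 0.0536 to 0.0588), with either guide number alone and with quantile scaling (-0.18, adjusted p 0.356). ASOs, not used in HPB-ALL, gave 0.06 (adjusted p 0.649).

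**Figure D2:**
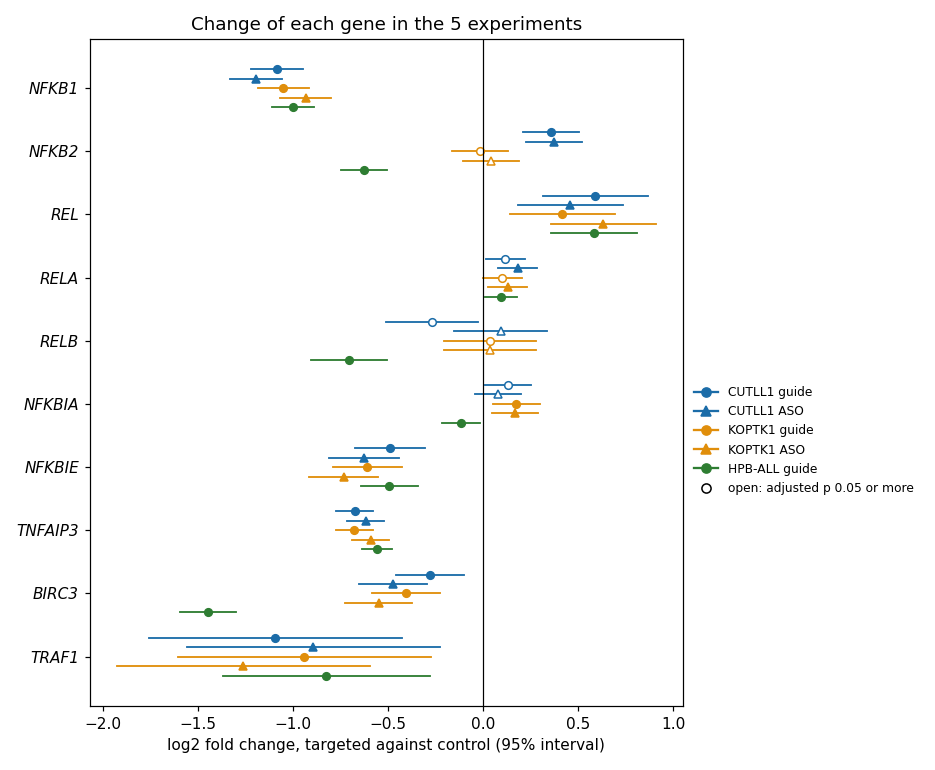
Log2 fold change of targeted against control libraries with its 95% interval, for each gene in the 5 experiments (blue CUTLL1, orange KOPTK1, green HPB-ALL; circles guides, triangles ASOs; filled symbols have an adjusted p under 0.05). NFKB1 lies near -1 throughout. HPB-ALL lies apart for NFKB2, RELB and BIRC3, and below 0 for NFKBIA where the other experiments lie above it.

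The subunits also differed in their share of the subunit mRNA, compared here as normalised counts per kilobase of annotated exon. RELA made up 57.2% of the sum of the 5 subunits in the CUTLL1 controls and 51.2% in the KOPTK1 controls, but 18.0% in the HPB-ALL controls, where RELB made up 40.7% and NFKB2 23.1%. RELB was 3.87% and 3.44% of the sum in the other lines. NFKB1 had 12.8% in CUTLL1, 32.2% in KOPTK1 and 15.7% in HPB-ALL controls, and 5.40%, 17.7% and 11.1% in targeted libraries. REL had 8.52%, 6.87% and 2.48% in controls and 11.4%, 10.8% and 5.25% in targeted libraries. The lengths count every annotated exon of a gene, so a gene with a long rarely used exon reads low on this scale.

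**Figure D3:**
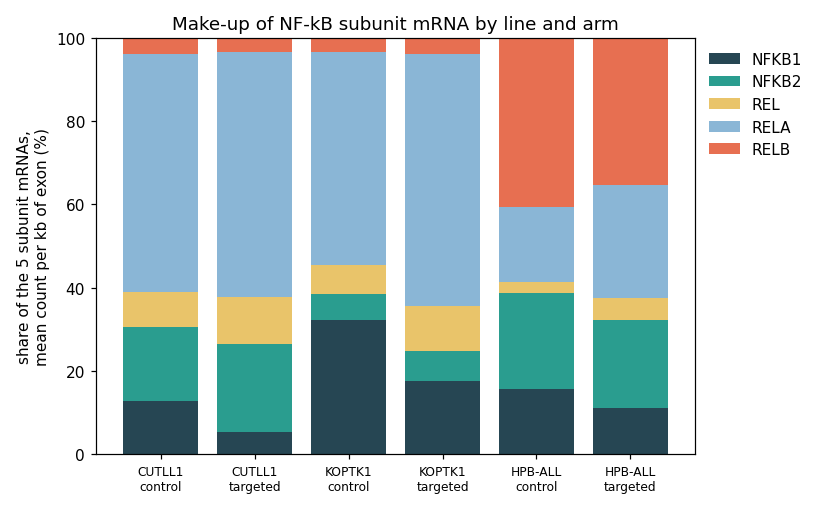
Share (%) of each subunit in the sum of the 5 subunit mRNAs, from mean normalised counts per kilobase of exon, by line and arm. RELA is the largest share in CUTLL1 and KOPTK1 and RELB in HPB-ALL, and the NFKB1 share is smaller in the targeted bar of each line.

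The inhibitor genes differed from each other. NFKBIA encodes IkB-alpha, the classic inhibitor that NF-kB induces within minutes. It read 1663 and 1702 in the CUTLL1 controls and 1758 to 1862 in targeted libraries, and 2034 and 2090.4 in KOPTK1 controls against 2249 to 2390.5. In HPB-ALL it read 4924 and 4774 in controls and 4631 and 4314 with guides. The targeted libraries thus lay above the controls in CUTLL1 and KOPTK1 and below them in HPB-ALL, by small margins (107%, 113% and 92.2% of control). The guide effect was 0.13 in CUTLL1 (adjusted p 0.0611), 0.17 in KOPTK1 (adjusted p 0.0172) and -0.12 in HPB-ALL (adjusted p 0.0371), with a difference among lines past the F test (F 10.2, adjusted p 0.0111). The KOPTK1 call was lost without KOPTK1 guide 1 (0.14, adjusted p 0.0702), and that with ASOs (0.17, adjusted p 0.0211) without KOPTK1 ASO 1 (0.14, adjusted p 0.0904). The HPB-ALL call was lost without HPB-ALL control 1 (-0.10, adjusted p 0.177), control 2 (-0.14, adjusted p 0.0560) or guide 2 (-0.07, adjusted p 0.280), and in edgeR (adjusted p 0.0723) and DESeq2 (adjusted p 0.0891). With no filter the KOPTK1 and HPB-ALL calls were lost, and in DESeq2 neither KOPTK1 call passed (adjusted p 0.0551 with guides and 0.0519 with ASOs). Pooled values did not pass with guides (0.04, SE 0.057, adjusted p 0.587) or ASOs (0.12, SE 0.046, adjusted p 0.0536). The ASO value lay near the threshold. It passed at a mean of 100 or more (adjusted p 0.0489) and with quantile scaling (0.16, adjusted p 0.0215). Without the CUTLL1 ASO control, which leaves KOPTK1 alone, it was 0.17.

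NFKBIE, which encodes IkB-epsilon, fell in every experiment. In CUTLL1 it read 480.0 and 547 in the guide and ASO controls, 353 and 331 with guides and 352 and 356 with ASOs. The KOPTK1 values were 502 and 534 in controls, 331 and 326 with guides and 328 and 312 with ASOs. In HPB-ALL controls of 1078 and 1110.4 compared with 793 and 759.7. No targeted library reached a control of its line, and the means were 67.7%, 62.6% and 70.9% of control in CUTLL1, KOPTK1 and HPB-ALL. The log2 fold change was -0.53 with guides (SE 0.056, adjusted p 2.15e-05) and -0.68 with ASOs (SE 0.078, adjusted p 0.000365), with no difference between lines past the test (F 0.71, adjusted p 0.599).

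Among the feedback genes, TNFAIP3 encodes A20, which removes the ubiquitin chains that relay the signal to IKK. It read 2334 and 2317 in the CUTLL1 controls, 1475 and 1445 with guides and 1503 and 1516 with ASOs. In KOPTK1 the controls were 2224 and 2109, the guides 1369 and 1409 and the ASOs 1437 and 1362. The HPB-ALL controls were 12715 and 12506 and the guides 8656 and 8437. The arms were apart in each line, and targeted means were 63.8%, 64.3% and 67.8% of control. Its log2 fold change was -0.63 with guides (SE 0.036, adjusted p 4.47e-07) and -0.61 with ASOs (SE 0.044, adjusted p 5.68e-05), and the 5 experiments ranged from -0.68 to -0.56. The F test between lines was not passed (F 2.99, adjusted p 0.155). An antisense gene overlaps TNFAIP3 in the annotation, and a non-coding gene on the other strand overlaps RELA. Since the use of strand in counting is not given, their reads cannot be told apart.

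BIRC3 encodes cIAP2, a ubiquitin ligase that also restrains the kinase of the slower branch. It read 664 and 678 in the CUTLL1 controls, 531 and 562 with guides and 472 and 503 with ASOs. In KOPTK1 it read 805 and 846, 581 and 633, and 569 and 584 in the same order. In HPB-ALL it went from 6692 and 6919 to 2367 and 2624. Every targeted library was below its controls, at 77.0% and 71.7% of control in CUTLL1 and KOPTK1 and at 36.7% in HPB-ALL. The guide effect was -0.28 in CUTLL1 (adjusted p 0.0100), -0.41 in KOPTK1 (adjusted p 0.000941) and -1.45 in HPB-ALL (SE 0.066, adjusted p 3.31e-09), and the difference between lines had the highest F of the 10 genes (F 80.3, adjusted p 1.09e-05). In CUTLL1 it no longer passed once guide 1 was left out (-0.24, adjusted p 0.0513), and with quantile scaling neither CUTLL1 (-0.10, adjusted p 0.30) nor KOPTK1 (-0.16, adjusted p 0.12) passed. ASOs gave -0.51 over both lines (SE 0.067, adjusted p 0.000652).

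TRAF1, an adaptor gene that NF-kB induces in lymphocytes, had the lowest counts of the set. It read 83.9 and 76 in the CUTLL1 controls and 37.9 to 41.9 in the targeted libraries. In KOPTK1 the controls read 49.4 and 60.0 and the targeted libraries 19.7, 32.2, 19.3 and 30.8, from as few as 16 reads. In HPB-ALL it went from 457 and 453 to 253 and 259.9. Arms were apart in each line, at 49.5%, 46.6% and 56.3% of control. The log2 fold change was -0.94 with guides (SE 0.14, adjusted p 0.000270) and -1.08 with ASOs (SE 0.25, adjusted p 0.00884). That pooled ASO call was lost with ASO number 2 alone (-0.89), and it was not tested at a mean of 100 or more. The KOPTK1 guide call was lost without KOPTK1 guide 1 (-0.60, adjusted p 0.0937) and the CUTLL1 ASO call without ASO 1 (-0.85, adjusted p 0.0726). Those calls were also lost with no filter and with quantile scaling, and the CUTLL1 ASO call in DESeq2 (-0.86). Quantile scaling lost the HPB-ALL guide call too (-0.55, adjusted p 0.0634). For TRAF1 too the F test between lines did not pass (F 0.24, adjusted p 0.833).

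Read by line, targeted and control libraries did not overlap for 9 of the 10 genes in CUTLL1 (4 above, 5 below), 8 in KOPTK1 (3 above, 5 below) and all 10 in HPB-ALL (2 above, 8 below). Over all genes tested the arms were apart for 79.4% in CUTLL1 (39.0% above, 40.4% below), 75.8% in KOPTK1 (36.7% and 39.1%) and 84.7% in HPB-ALL (40.8% and 43.9%). The numbers of genes with arms apart are thus near the background. In HPB-ALL the split, 2 above and 8 below, leaned lower than it did over all genes. By the test, CUTLL1 guides had 2 genes higher and 5 lower, where 62.3% of all genes were called (30.8% higher, 31.5% lower). KOPTK1 guides also had 2 higher and 5 lower, beside 64.1% (31.0% and 33.1%), and HPB-ALL guides 2 higher and 8 lower, beside 70.9% (34.0% and 36.9%). With ASOs 3 were higher and 5 lower both in CUTLL1, beside 62.3% (30.5% and 31.8%), and in KOPTK1, beside 63.4% (30.6% and 32.8%). Quantile scaling gave 4 higher and 4 lower in CUTLL1 with guides and with ASOs, 4 and 3 in KOPTK1 with guides, 5 and 5 there with ASOs, and 2 and 7 in HPB-ALL. The guide effect differed between lines for 4 of 10 genes (NFKB2, RELB, NFKBIA and BIRC3), where it did for 43.7% of all genes.

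Guides and ASOs were compared within CUTLL1 and KOPTK1. The guide control and ASO control differed by a mean chi-square per gene of 2.29 in CUTLL1 and 4.06 in KOPTK1, as little as replicates (2.34 to 6.75), so whether the ASO libraries are a separate experiment from the guide libraries cannot be told from these values. None of the 10 genes had a difference past the threshold in limma, and 0 had an unadjusted p under 0.05. The intervals of the difference (guide effect minus ASO effect) were -0.14 to 0.13 for NFKB1, -0.18 to 0.11 for NFKB2, -0.17 to 0.02 for TNFAIP3 and -0.01 to 0.35 for BIRC3. For TRAF1 the interval was much wider, -0.61 to 0.73. Over all 14020 genes 0 (0%) were called by limma, 0 by edgeR and 1 by DESeq2, and 1393 had an unadjusted p under 0.05 in limma.

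Starting levels differed between lines for most of the genes. In the 6 control libraries 9 of 10 genes differed between lines (limma F test), where 92.7% of the 14228 genes tested did. REL did not pass (F 0.82, adjusted p 0.488). HPB-ALL was above CUTLL1 for 9 genes and above KOPTK1 for 8, where 40.1% and 39.7% of all genes were higher. It was below KOPTK1 for 1, RELA, beside 39.9% of all genes, and the shares called in either direction were 79.4% and 79.5%. The median difference of the 10 genes was 2.16 (log2) against CUTLL1 and 1.89 against KOPTK1, beside 0.01 and 0.00 over all genes.

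RELB differed most, by 5.21 (log2, SE 0.067, adjusted p 2.64e-09) from CUTLL1 and 4.95 from KOPTK1, a ratio of means of 37.3 and 31.2. BIRC3 was 3.34 and 3.04 higher in HPB-ALL (ratios 10.1 and 8.25), TNFAIP3 2.44 and 2.54 (5.42 and 5.82), and TRAF1 2.50 and 3.04 (5.69 and 8.32). NFKB2 was 2.22 above CUTLL1 and 3.25 above KOPTK1 (ratios 4.65 and 9.55). The inhibitor genes differed less, NFKBIA by 1.53 and 1.23 and NFKBIE by 1.09 and 1.08. NFKB1 was 2.11 above CUTLL1 but 0.36 above KOPTK1, since KOPTK1 itself had 3.37 times the CUTLL1 mean. RELA was 0.16 above CUTLL1 (adjusted p 0.00452) and 0.11 below KOPTK1 (-0.11, adjusted p 0.0274), a call lost with quantile scaling (-0.06, adjusted p 0.168) and without HPB-ALL control 2 (-0.07, adjusted p 0.160), the KOPTK1 guide control (adjusted p 0.0971) or the KOPTK1 ASO control (adjusted p 0.0950).

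Between CUTLL1 and KOPTK1 the genes were mixed. KOPTK1 was higher for 5, NFKB1 (1.75), BIRC3 (0.30), NFKBIA (0.29), RELA (0.27) and RELB (0.26), and lower for 3, NFKB2 (-1.04), TRAF1 (-0.54) and TNFAIP3 (-0.10). Of all genes 76.1% were called, 38.3% higher and 37.8% lower. The TNFAIP3 call was lost without either CUTLL1 control or without the KOPTK1 ASO control (adjusted p 0.0740 to 0.0980), and that of TRAF1 without the CUTLL1 guide control (-0.47, adjusted p 0.0585).

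After targeting, HPB-ALL stayed above the other lines for the genes it led. The ratio of its mean to that of CUTLL1 was 24.2 for RELB, 4.83 for BIRC3 and 2.34 for NFKB2 in targeted libraries, each lower than in controls (37.3, 10.1 and 4.65). For TNFAIP3 it was 5.76 and for TRAF1 6.48, beside 5.42 and 5.69 in controls. REL and RELA stayed between 0.913 and 1.12 in both arms against both lines.

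**Figure D4:**
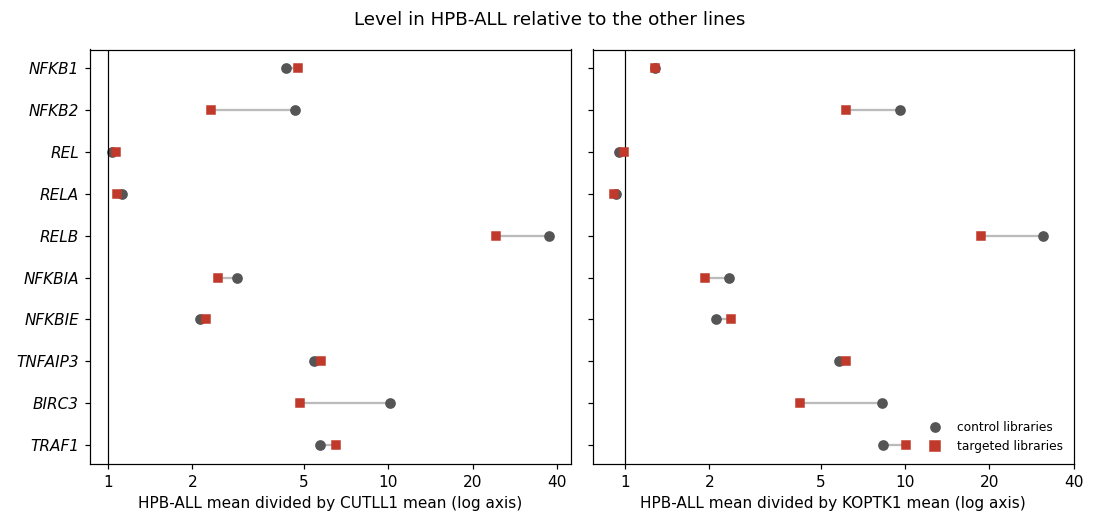
Mean normalised count in HPB-ALL divided by that in CUTLL1 (left) and KOPTK1 (right), log axis, for control (grey circles) and targeted (red squares) libraries. RELB had the highest ratio in both panels, and the ratios of NFKB2, RELB and BIRC3 were lower in targeted libraries, while those of REL and RELA were near 1.

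Per kilobase of exon, NFKBIA was the highest of the 10 genes in CUTLL1 (709 ± 11.7, SD, n = 2) and KOPTK1 controls (869 ± 16.7, SD, n = 2), followed by RELA (654 ± 20.7 and 789 ± 0.29). In HPB-ALL controls TNFAIP3 was highest (2497 ± 29.3, SD, n = 2), followed by NFKBIA (2043 ± 44.6) and RELB (1652 ± 0.65). TRAF1 was lowest in each line, at 12.4 ± 0.87, 8.48 ± 1.16 and 70.6 ± 0.43. In HPB-ALL controls NFKB2 (937 ± 38.2) and BIRC3 (905 ± 21.3), which are neighbours in that order, did not differ beyond their spread. Each SD here rests on 2 libraries, so one as small as 0.29 or 0.65 may understate the spread.

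The rest of the pathway was followed through 5 lists, chosen for their role. Their counts stand beside the shares over all genes tested, 32.7% higher and 35.0% lower with guides and 31.8% and 33.2% with ASOs. The TNF family list (18 ligands and receptors that feed NF-kB, 12 with enough counts to test) had 0 genes higher and 7 lower with guides, and 0 higher and 8 lower of 10 with ASOs. Of the 12, 8 averaged under 20 in the controls of at least 1 line and were tested through the line or lines where they are high, so these counts describe the genes that passed the filter and not the list. LTB, the lymphotoxin-beta gene, fell by 2.86 with guides (SE 0.060), from means of 2343, 2616 and 5963 in the CUTLL1, KOPTK1 and HPB-ALL controls to 351, 330 and 855. TNFRSF14, the HVEM receptor gene, was at -2.47 (SE 0.15) and the costimulatory receptor gene CD27 at -2.67 (SE 0.16). By edgeR 11 of the list were lower with guides.

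Of 13 IKK and upstream kinase genes 9 rose and 3 fell with guides (7 and 3 with ASOs), with a median of 0.26, against -0.03 over all genes. The kinase gene of the slower branch, MAP3K14, rose by 0.61 (SE 0.060) and 0.65 with ASOs, CHUK, the IKK-alpha gene, by 0.37 (SE 0.038) and RIPK1, an adaptor kinase of the TNF receptor, by 0.73 (SE 0.074). The 3 that fell with guides were IKBKE (-1.78, SE 0.31), IKBKB (-0.34, SE 0.078) and TAB1 (-0.12, SE 0.041). The guide effect differed between lines for 5 of the 13, beside 43.7% of all genes.

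Of 16 TRAF and ubiquitin genes 8 rose and 5 fell with guides, and 7 rose and 4 fell with ASOs. That is 13 of 16 called with guides, beside 67.7% of all genes. Of those that fell with ASOs, 2 passed in edgeR, in DESeq2, with no filter, with the replicate block, with either ASO number alone, and without CUTLL1 ASO 1, KOPTK1 ASO 1 or KOPTK1 ASO 2. TRAF3 and TRAF5, adaptor genes like TRAF1, fell by 1.07 (SE 0.099) and 1.21 (SE 0.086), and TAX1BP1, a partner of A20, rose by 0.72 (SE 0.039). TRAF3, which with BIRC3 restrains MAP3K14, went from 2288 to 860 in CUTLL1, 5757 to 2955 in KOPTK1 and 8479 to 4777 in HPB-ALL (means of controls and targeted libraries).

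The 4 other IkB genes had 1 higher and 3 lower with guides, and 0 higher and 1 lower of 3 with ASOs. NFKBIZ, a nuclear IkB-like cofactor, was at 1.54 (SE 0.14, adjusted p 7.45e-06) and rose from a mean of 39.3 to 134 in CUTLL1, 34.0 to 56.4 in KOPTK1 and 254 to 709 in HPB-ALL, but with ASOs its 0.88 did not pass (adjusted p 0.0856). That ASO value passed without KOPTK1 ASO 2 (1.16, adjusted p 0.0178) and with quantile scaling (1.17, adjusted p 0.0363). Without the KOPTK1 ASO control, which leaves CUTLL1 alone, it was 1.59. BCL3, another cofactor, had means of 1880 and 1103 in the HPB-ALL arms (-0.77, adjusted p 0.314) and of at most 10.8 in those of CUTLL1 and KOPTK1. Its pooled guide value passed (-1.13, SE 0.28) while no single line did (adjusted p 0.0669 in CUTLL1 and 0.310 in KOPTK1), and it draws on values near 0 in both of those lines. NFKBIB was at -0.42 (SE 0.054). Of 14 tested NF-kB target genes (31 listed, NFKBIZ among them) 4 rose and 8 fell with guides (32.7% and 35.0% of all genes), and 3 and 9 with ASOs (31.8% and 33.2%). Of the 14, 3 averaged under 20 in the controls of at least 1 line. BCL2L1, a survival gene, was at -0.69 (SE 0.040), CFLAR, which blocks death receptor signalling, at -1.78 (SE 0.10), and ICAM1, which serves cell adhesion, at -2.28 (SE 0.14). The T-lineage markers given above fell too, 9 of 10 with guides, with a median of -1.09, and their part in these values was not tested.

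**Figure D5:**
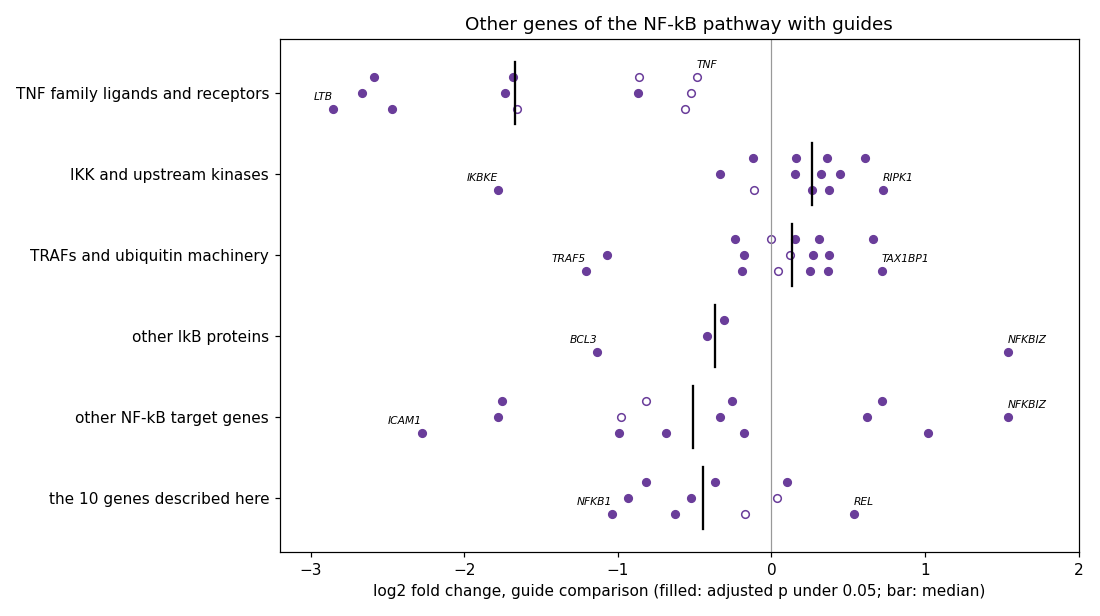
Log2 fold change in the guide comparison of each tested gene of 5 pathway lists and of the 10 genes described here, with the lowest and highest of each list named, filled where the adjusted p was under 0.05, and the median as a bar. LTB lies lowest at -2.86 and NFKBIZ highest at 1.54. Genes near 0 counts in some lines are included where their mean over the guide libraries passed the filter, which bears on the TNF family bar most.

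For 4 of the genes the most similar patterns over the 16 libraries were sought among 14020 genes, by Pearson's r of log2 values. Closest to NFKB1 were KLHL6 (0.996), LSM11 (0.993) and APOBEC3G (0.993), and to TNFAIP3 RHOQ (0.995), ST6GALNAC4 (0.995) and NKD2 (0.994). NFKB2 was closest to SPRY2 (0.992), CENPP (0.992) and ACTL10 (0.987), and NFKBIA to SIK3 (0.993), RBM33 (0.989) and KIAA0922 (0.989). The libraries share lines and arms, so these values describe the 6 combinations of line and arm more than 16 independent points.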

How the data were processed

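The authors deposited 1 table of normalised read counts, a signal of whole reads per gene divided by 1 factor per library: each value was a whole multiple of its column's smallest nonzero value (100%, tolerance 1e-06). Per the submitters' processing notes, STAR (version 1.4.2), DESeq2 and hg19 were used, with no roles stated. No source used here gives the counter, annotation or strand setting. Symbols were read as deposited.

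Tests used log2(count + 1) in limma 3.58.1 (R 4.3.3, moderated, with a trend on mean level), for genes averaging at least 20, and Benjamini-Hochberg adjusted p under 0.05 over all genes tested. The added 1 shrinks fold changes of low genes. The guide and the ASO comparison had cell line as a term and share no control library. Leaving out the lone control of a line takes that line out of these comparisons. A single model of the 10 group means, on all 16 libraries, gave the single experiments, the F test between lines and guides minus ASOs; in it a lone control is assumed to vary like the other groups. The same libraries enter the pooled and the single comparisons. Control lines used the 6 controls.

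The genes, lists and tests were chosen with earlier results of these data known. Named genes are the 10 members, up to 3 genes per pathway list with the smallest guide p (1 list is not reported here), and the 3 most similar patterns for 4 members. OTULIN is listed under another symbol, FAM105B. Exon lengths came from GENCODE v29 and promoters from RefSeq. The fits were also run on simulated data in which far fewer genes changed than were called here, and no conclusion is drawn from that run. Alternatives were a pseudocount of 5, no filter or a mean of 100, 2 other scalings, robust moderation, the replicate block, 1 guide or ASO number alone, each library left out, and edgeR 4.0.16 and DESeq2 1.42.0 on recovered reads without CUTLL1 ASO 1, whose step lies too near 1 to be checked.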

Additional observations from a re-analysis of the deposited data

Results flagged for a closer look

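For 4 of the 10 genes the guide effect differed between CUTLL1, KOPTK1 and HPB-ALL by limma's F test, where 43.7% of all genes tested did. BIRC3 had an F of 80.3 (adjusted p 1.09e-05), lower in all 3 lines and most in HPB-ALL. NFKB2 had an F of 69.1 (adjusted p 1.90e-05), higher in CUTLL1 and lower in HPB-ALL. RELB had an F of 14.1 (adjusted p 0.00432), called lower in HPB-ALL, with CUTLL1 just short of the threshold as reported (adjusted p 0.0531) and past it under some alternatives. NFKBIA had an F of 10.2 (adjusted p 0.0111), called higher in KOPTK1 and lower in HPB-ALL. The F test was called for the same 4 genes under each alternative run, with adjusted p of up to 0.0221 for RELB and 0.0488 for NFKBIA. It could not be run without the CUTLL1 or the KOPTK1 guide control, each a single library.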

How the results depend on the processing

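Over the alternatives, 2323 values of the 10 genes kept direction and call, 68 lost a call, 29 gained one and 19 changed sign. NFKB1, REL, NFKBIE, TNFAIP3 and BIRC3 kept their calls in the guide and ASO comparisons under each alternative run. Each change of sign was in a value that did not pass as reported. Quantile scaling turned NFKB2 in KOPTK1 guides (0.31, past the threshold), RELB in CUTLL1 guides (0.038) and NFKB1 in guides minus ASOs (0.013), and edgeR turned REL in guides minus ASOs (4.52e-05). With 1 library left out, the values that changed sign ran from -0.018 to 0.079 for NFKBIA in the guide comparison, -2.29e-05 to 0.070 for RELB in KOPTK1 guides, -0.039 to 0.034 for NFKB1, -0.088 to 0.0028 for REL and -0.11 to 0.23 for TRAF1 in guides minus ASOs, -0.079 to 0.11 for NFKBIE in KOPTK1 minus CUTLL1, and -0.076 to 0.16 and -0.19 to 0.040 for REL in HPB-ALL minus CUTLL1 and minus KOPTK1. With no filter 4 of the 10 genes were called in KOPTK1 guides, and 1501 genes in guides minus ASOs; the latter count was 1 with a pseudocount of 5, quantile scaling or DESeq2 and 0 to 4 with 1 library left out. With number 1 or number 2 of the ASOs alone, 3 or 4 of the IKK and upstream kinases rose (7 with both), and 3 or 2 of the TRAF and ubiquitin genes (7 with both), with fewer libraries. The other causes were not tested. The difference between numbers 1 and 2 was hardly shared between groups (r of -0.014 to 0.065). Low r values cannot tell whether a number marks the same guide, ASO or batch across lines. The replicate block gave 9188 and 7301 genes in the guide and ASO comparisons (9519 and 8913 without it). It changed no call of the 10 genes. Controls of 1 library limit each single experiment in CUTLL1 and KOPTK1, and TRAF1 in KOPTK1 is limited by depth.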
